A study of Homo sapiens with 8 samples.

Results

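The 69 genes described here are the protein-coding members of the ADAM, ADAMTS, ADAMTSL and MMP families, taken from 58735 gene IDs by their GENCODE 29 symbols. Symbols that start with ADAM, or with MMP and a digit, were taken, and names with a hyphen were not. They comprised 21 ADAM genes (ADAMDEC1 included), 19 ADAMTS genes, 5 ADAMTSL genes and 24 MMP genes. The MMP genes included MMP24OS, a protein-coding gene on the strand opposite MMP24, which the name rule takes in although it encodes no metalloprotease. Names alone decided membership, but the families were chosen by a measured value, the CPM of ADAMTS7, which was higher in every DMSO library than in the parental one. That contrast is therefore given for ADAMTS7 as a description, with no test.

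Bulk RNA was sequenced from the MOLM-13 line of acute myeloid leukemia in a study of how this line becomes resistant to the alkylating agent busulfan. The 4 libraries used were DMSO course 1, DMSO course 3 and DMSO course 5, each from cells carried through that number of courses of the vehicle DMSO at 1% without busulfan, and replicate 2 of the parental cells, which had no course. All were grown in RPMI medium with serum. The labels give at most 20 passages for parental cells and no passage number for the DMSO cultures, so passage and courses cannot be told apart. Busulfan-treated cells and the first parental replicate were not analysed here.

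ADAM proteins are membrane-anchored proteases that cut the outer parts of other membrane proteins free, which is called shedding. ADAMTS proteins are secreted relatives with thrombospondin repeats that cut matrix proteins such as proteoglycans and procollagens, and ADAMTSL proteins resemble them but lack the catalytic domain. MMPs, the matrix metalloproteinases, are secreted or membrane-bound enzymes that cut collagens, gelatin and other matrix proteins, and TIMP proteins inhibit them. In myeloid leukemia the gelatinases MMP2 and MMP9 are known to be released by blasts.

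Gene counts totalled 44795976, 50855326 and 45095954 in DMSO courses 1, 3 and 5 and 56825811 in the parental library. Reads that HTSeq set aside as not uniquely aligned came to 15.39%, 14.24% and 21.33% of reads in the DMSO courses and 13.86% in the parental library. The 10 myeloid markers examined, among them CD33, MPO and LYZ, each had at least 10 counts in every library. Their summed level was 3854, 3694 and 3141 CPM (counts scaled to a common library size with TMM, the trimmed mean of M-values) in the DMSO courses and 2929 CPM in the parental library. Stromal markers summed to 1.91 to 4.11 CPM in the DMSO libraries and 4.77 CPM in the parental library, with COL3A1, DCN, THY1 and POSTN at 0 counts in all 4 and LUM at 15, 46 and 52 counts in the DMSO courses and 1 in the parental library. Epithelial markers summed to 20.3, 12.3 and 10.4 CPM in the DMSO courses and 40.2 CPM in the parental library, nearly all from the keratin genes KRT8 and KRT18, with KRT19 at 0 counts. Endothelial markers summed to 4.29, 1.59 and 1.34 CPM in the DMSO courses and 3.48 CPM in the parental library, with CDH5, TEK and EMCN at 0 counts, as were CD2 and MS4A1 of the lymphoid markers. The part of these markers in the values below was not tested.

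Transcripts of 32 of the 69 genes were abundant enough to be tested, 19 genes had 0 counts in every library, and the highest count of 16 others was between 1 and 9. The other 2, MMP28 and ADAMTS18, reached 10 counts in course 3 but did not pass the filter, and ADAMTS18 had 0, 10 and 9 counts in DMSO courses 1, 3 and 5 and 5 in the parental library. Per kilobase of exon, MMP14 had the highest mean level, at 45.4, 49.7 and 51.9 CPM per kb in DMSO courses 1, 3 and 5 and 40.0 CPM per kb in the parental library. MMP14 encodes a membrane-anchored MMP that cuts collagen and activates the MMP2 precursor. ADAMTSL4, which encodes a protein of the fibrillin network, came next on this scale, at 52.1, 26.6 and 19.3 CPM per kb in the DMSO courses and 42.4 CPM per kb in the parental library. The membrane-anchored MMP17 and the ADAM genes ADAM15 and ADAM10 followed, with means of 15.9, 12.5 and 11.1 CPM per kb over the 4 libraries. The collagenase genes MMP1, MMP8 and MMP13 and the stromelysin genes MMP3, MMP10 and MMP11 had 0 counts in every library, which allows up to 3 counts a library. On chromosome 11 a row of 9 MMP genes that runs from MMP7 to MMP13 held at most 2 counts of any gene in any library. RNA from bulk cultures does not tell fewer expressing cells from less RNA per cell.

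**Figure D1:**
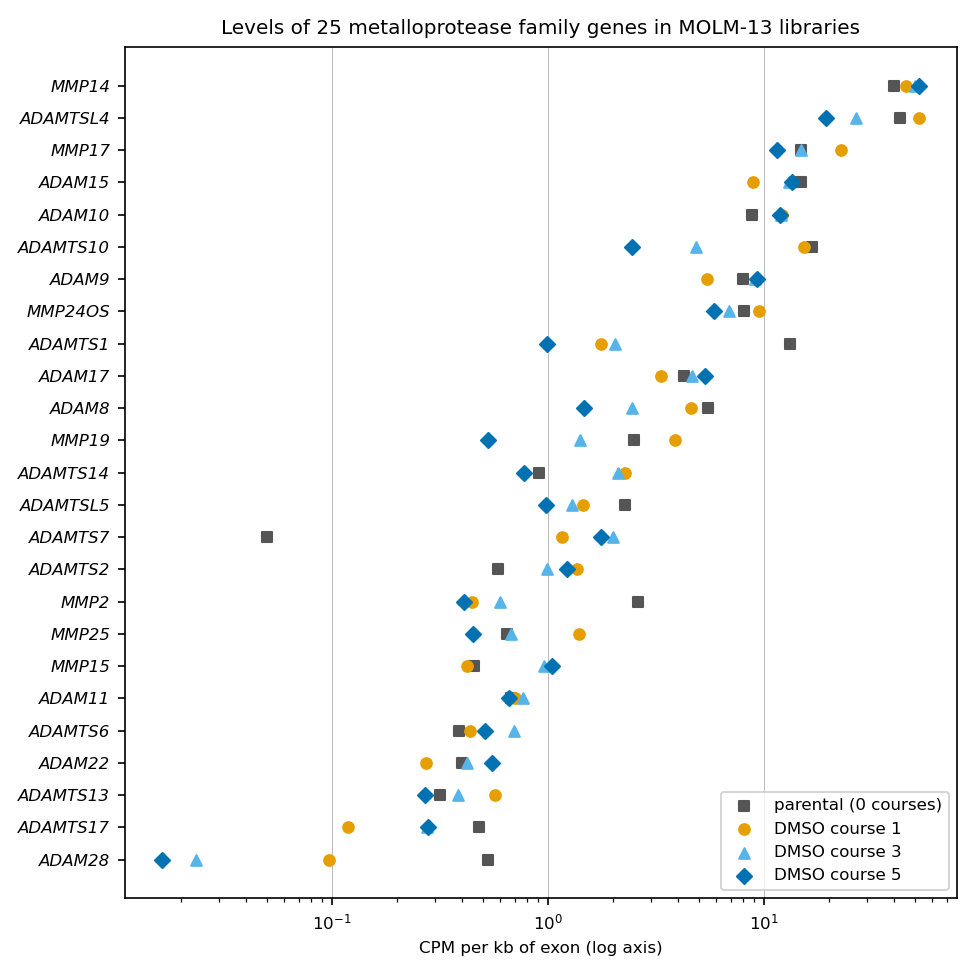
Level of the 25 members with a mean of at least 1 CPM, as CPM per kb of exon on a log axis, with 1 symbol per library and the highest mean at the top. ADAMTS7 has its parental library at 0.0503 CPM per kb, left of the DMSO libraries, while ADAMTS1 and MMP2 have theirs at 13.2 and 2.60 CPM per kb, right of the DMSO libraries.

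ADAMTS7 (ENSG00000136378, chromosome 15), a secreted protease known to cut thrombospondin 1 and cartilage oligomeric matrix protein, had 385, 776 and 621 counts in DMSO courses 1, 3 and 5, against 23 counts in the parental library. These counts correspond to 8.93, 15.5 and 13.6 CPM in the DMSO courses and 0.389 CPM in the parental library. The DMSO libraries averaged 12.7 ± 3.36 CPM (SD over 3 libraries of different courses). The log2 ratio to the parental library was 4.52 (95% counting interval 3.92 to 5.20), 5.31 (4.72 to 5.98) and 5.13 (4.53 to 5.80) in courses 1, 3 and 5. Among the DMSO libraries themselves the level was 1.73-fold higher in course 3 than in course 1 (log2 0.79, 0.61 to 0.97), and the ratio of course 5 to course 3 was 0.882 (log2 -0.18, -0.34 to -0.03).

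Its paralog ADAMTS12 had at most 2 counts in any library. Of the 50-base stretches of the ADAMTS7 exons, 14.8% also occur in other genes, and no gene shared more of them than the pseudogene ADAMTS7P3. Reads from those stretches could therefore be set aside as not unique. The pseudogenes ADAMTS7P1, ADAMTS7P3 and ADAMTS7P4 had between 0 and 8 counts in every library. ADAMTS7 overlaps MORF4L1, a chromatin protein gene on the other strand, which stood at 104.8, 110.2 and 126.2 CPM in DMSO courses 1, 3 and 5 and 98.4 CPM in the parental library. The files' names give strand-specific counting, but whether the kit keeps strand is not given in the sources used here. Reads of ADAMTS7 and MORF4L1 in the overlap may therefore not be told apart. In this counting, reads without a feature came to 9.79%, 8.46% and 6.64% of reads in DMSO courses 1, 3 and 5. They came to 9.13% in the parental library, and whether strand was kept was not tested. Of 10 genes around ADAMTS7, 7 could be tested, namely IREB2, PSMA4, CHRNA5, MORF4L1, CTSH, RASGRF1 and TBC1D2B. Of these 7, 0 were 2-fold higher in any DMSO library than in the parental one. Over all genes tested 6.85%, 5.73% and 6.35% were higher in courses 1, 3 and 5, so 0 of 7 is near the share. The highest log2 ratio of the 7 neighbours to the parental library was 0.49, for TBC1D2B in course 1. On the lower side CHRNA5, a nicotinic receptor subunit, was past 2-fold in course 1 (log2 -2.18, -2.99 to -1.45), and RASGRF1, a Ras exchange factor, in courses 1 and 5 (-1.17, -1.92 to -0.47, and -1.38, -2.16 to -0.66). The shares of all genes past 2-fold on that side were 8.51%, 7.93% and 11.6% in courses 1, 3 and 5. HYKK, CHRNA3 and CHRNB4 had at most 4 counts in any library.

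The 250 bases before the start site are shown for ADAMTS7, for ADAMTS10 and ADAM8, whose levels were lower at each successive course, and for MMP14, the member in rising order. The sequences are from RefSeq on GRCh38.p14, 5′ to 3′ on the strand of the gene, and capitals mark the GC box GGGCGG or its reverse complement CCGCCC, the letters bound by Sp factors. They lie at chr15:78811465-78811714 on the minus strand for ADAMTS7, chr19:8610716-8610965 on the minus strand for the outermost of the ADAMTS10 starts, chr10:133276869-133277118 on the minus strand for ADAM8 and chr14:22836335-22836584 on the plus strand for MMP14.
ADAMTS7: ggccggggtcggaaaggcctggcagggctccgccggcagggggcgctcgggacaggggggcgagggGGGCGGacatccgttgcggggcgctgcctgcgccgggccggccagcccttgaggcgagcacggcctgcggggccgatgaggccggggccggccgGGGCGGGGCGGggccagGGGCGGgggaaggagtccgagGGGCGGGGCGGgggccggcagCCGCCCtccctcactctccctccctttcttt
ADAMTS10: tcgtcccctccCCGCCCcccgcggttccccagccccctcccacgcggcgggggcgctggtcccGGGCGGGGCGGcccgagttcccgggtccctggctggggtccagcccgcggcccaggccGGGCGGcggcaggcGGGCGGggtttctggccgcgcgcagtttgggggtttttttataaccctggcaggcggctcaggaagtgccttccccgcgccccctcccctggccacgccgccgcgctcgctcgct
ADAM8: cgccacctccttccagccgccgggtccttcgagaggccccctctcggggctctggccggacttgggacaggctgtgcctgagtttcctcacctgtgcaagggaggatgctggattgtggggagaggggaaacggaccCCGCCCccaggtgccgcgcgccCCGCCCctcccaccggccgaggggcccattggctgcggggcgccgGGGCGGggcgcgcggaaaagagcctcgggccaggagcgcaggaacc
MMP14: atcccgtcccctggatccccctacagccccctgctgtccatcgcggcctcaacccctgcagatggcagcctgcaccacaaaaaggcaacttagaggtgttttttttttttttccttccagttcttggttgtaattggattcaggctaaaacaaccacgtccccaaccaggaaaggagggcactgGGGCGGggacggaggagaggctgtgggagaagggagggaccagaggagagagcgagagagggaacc

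Counting overlapping matches, the ADAMTS7 window held 7 GC boxes, the ADAMTS10 window 5, the ADAM8 window 3 and the MMP14 window 1. Their GC content was 80.8%, 78.4%, 73.6% and 56.8% in that order, against a median of 58.0% over 35116 windows of the same length. A GC box on either strand was present in 42.6% of all windows and in 16 of the 17 windows matched among the 25 members that averaged 1 CPM or more. The 17 windows are 1 per gene, from genes chosen by their level, while the 35116 were not chosen by level. Shares in the 17 and in all windows are therefore not a like comparison. The letters TGANTCA of an AP-1 site occurred in 6.57% of all windows and in 0 of the 17, and the letters CACGTG of an E-box in 6.34% of all windows and in 3 of the 17. The ADAMTS7 window thus held the most GC boxes of the 4 shown, and its GC content was above that of 97.4% of all windows.

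Seen over the whole family, 2 of the 32 tested members were at least 2-fold higher in all 3 DMSO libraries than in the parental library, which holds for 1.55% of all 18612 genes tested, and 6 members were at least 2-fold lower in all 3, which holds for 2.81%. Among the 12867 protein-coding genes tested the shares were 1.56% and 3.04%. Here 2-fold also asks that the 95% counting interval excludes a ratio of 1. Since ADAMTS7 was the gene that led to the choice of the family, the count of higher members apart from it was 1 of 31, and the share over all genes says nothing about ADAMTS7. The 2 higher members were ADAMTS7 and ADAMTSL2, and the 6 lower ones were ADAMTS1, MMP2, ADAM28, MMP9, ADAMTS4 and ADAMTS5. Several of these are scarce transcripts: 17 members had a mean of 5 CPM or more, of which only ADAMTS7 was higher and only ADAMTS1 was lower in all 3 DMSO libraries. MMP9, ADAMTS4 and ADAMTS5 reached 10 counts only in the parental library, so they entered the count through the library in which they were high, and ADAMTSL2 and ADAMTS4 are named, after their values were seen, because they belong to the count. All 3 comparisons share the 1 parental library.

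**Figure D2:**
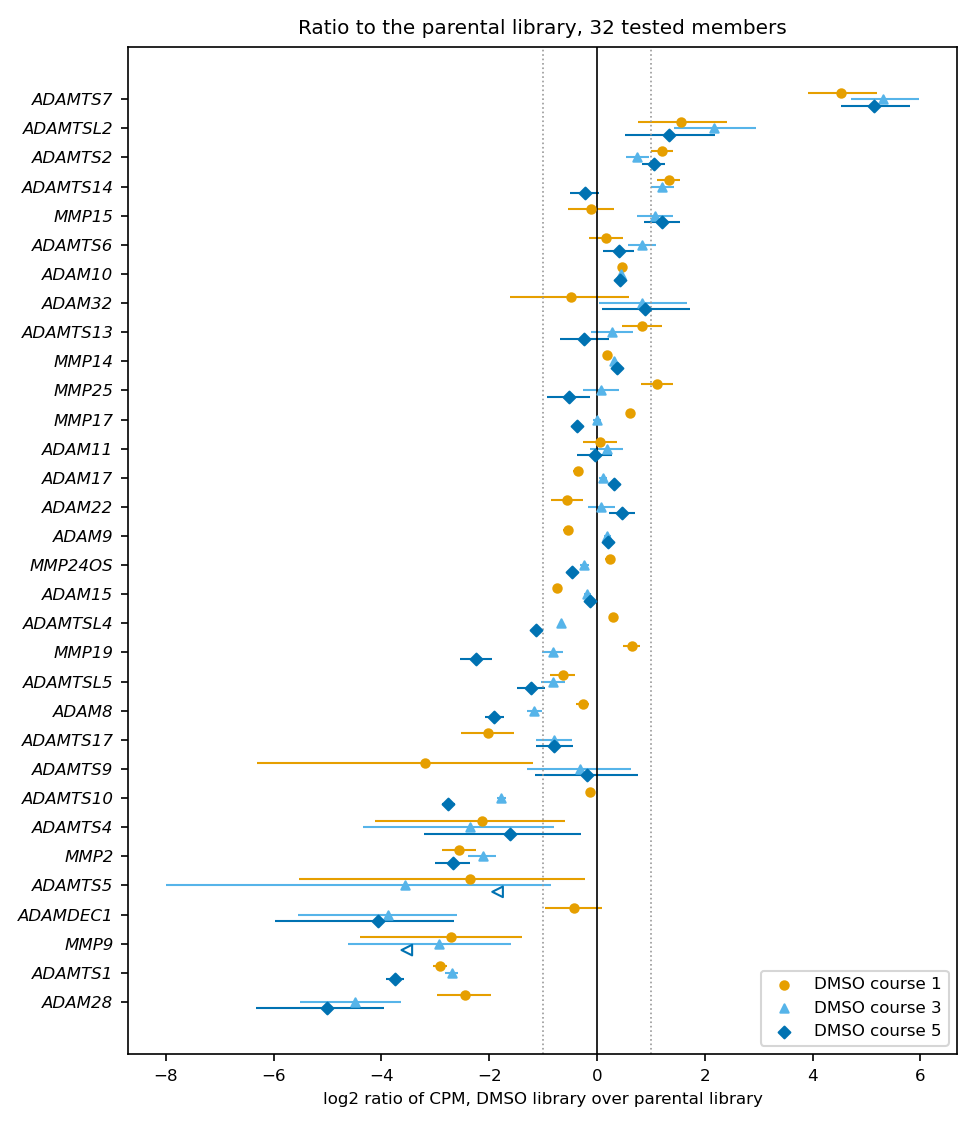
The log2 ratio of CPM in each DMSO library over the parental library for the 32 tested members, with 95% counting intervals as bars and dotted lines at 2-fold. Open triangles are ratios with the 0 counts of course 5 set to the floor of 3 counts, and the interval of ADAMTS5 in course 3 runs past the left end of its bar at -8. ADAMTS7 lies above 4.5 in all 3 courses, while ADAMTS1, MMP2 and ADAM28 lie below -2.

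Of the 7 ADAMTS genes whose products cut proteoglycans, 4 were tested. Of these, ADAMTS1, ADAMTS4 and ADAMTS5 were at least 2-fold lower in all 3 DMSO libraries, as were 2.81% of all genes tested. Since ADAMTS4 and ADAMTS5 passed the filter only through the parental library, the count rests on ADAMTS1. ADAMTS1 (chromosome 21), which cuts versican and aggrecan, had 532, 720 and 317 counts in DMSO courses 1, 3 and 5, against 5507 counts in the parental library. In CPM it stood at 12.4, 14.3 and 6.96 in the DMSO courses and 93.1 in the parental library, so no DMSO library came near the parental level. The log2 ratio was -2.91 (-3.05 to -2.79), -2.70 (-2.81 to -2.59) and -3.74 (-3.91 to -3.58). Its neighbour on the same strand, ADAMTS5, lies 72.5 kb away and encodes an aggrecanase, and it had 2, 1 and 0 counts in the DMSO courses and 14 in the parental library. ADAMTS4, the other aggrecanase, had 4, 4 and 6 counts in the DMSO courses and 24 in the parental library. ADAMTS9 had 2 counts in course 1, 17 in course 3 and 17 in course 5, against 25 in the parental library, so its low value was that of course 1 alone. Summed over the 7 proteoglycanase genes, the level was 12.6, 14.9 and 7.48 CPM in the DMSO courses and 94.2 CPM in the parental library, and ADAMTS1 made up nearly all of it.

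Of the 3 procollagen N-proteinase genes, whose products remove the amino-terminal propeptide of fibrillar collagens, 2 were tested. Of these 2, 0 were past 2-fold in all 3 DMSO libraries. Over all genes tested 1.55% were higher and 2.81% lower in all 3, so 0 of 2 is near the shares. ADAMTS2 had 509, 432 and 484 counts in DMSO courses 1, 3 and 5 and 304 in the parental library, or 11.8, 8.60 and 10.6 CPM against 5.14 CPM. Its log2 ratios were 1.20 (0.99 to 1.41), 0.74 (0.53 to 0.96) and 1.05 (0.84 to 1.26), and course 3 kept it just short of the 2-fold count. ADAMTS14 had 12.0, 11.1 and 4.08 CPM in the DMSO courses and 4.78 CPM in the parental library. It was thus 2.51-fold and 2.31-fold higher in courses 1 and 3, while the course 5 interval (log2 -0.50 to 0.04) included the parental level. ADAMTS3, the remaining member, had at most 1 count. One of their substrates, COL1A1, named after its values were seen, had 108, 10 and 5 counts in the DMSO courses and 186 in the parental library.

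Among the other ADAMTS genes, ADAMTS10, a protease of fibrillin microfibrils, differed mainly in the later courses. It had 3735, 1388 and 637 counts in DMSO courses 1, 3 and 5 and 5608 in the parental library, or 86.7, 27.6 and 14.0 CPM against 94.8 CPM. The ratio to the parental library was close to 1 in course 1 (log2 -0.13, -0.19 to -0.07) and reached a log2 of -1.78 (-1.86 to -1.69) in course 3 and -2.76 (-2.88 to -2.64) in course 5. Its closest relative, ADAMTS6, did not share this pattern, with 3.74, 5.93 and 4.39 CPM in the DMSO courses and 3.33 CPM in the parental library. ADAMTS17, mutated like ADAMTS10 in Weill-Marchesani-type syndromes, was lowest in course 1, at 0.975 CPM, with 2.27 and 2.28 CPM in courses 3 and 5 and 3.95 CPM in the parental library. ADAMTS13, the protease of von Willebrand factor, had 3.23, 2.19 and 1.54 CPM in the DMSO courses and 1.81 CPM in the parental library, so the parental value fell inside the DMSO range.

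The catalytically inactive ADAMTSL genes were carried by ADAMTSL4. It had 14430, 8581 and 5670 counts in DMSO courses 1, 3 and 5 and 16121 in the parental library, or 334.9, 170.8 and 124.4 CPM against 272.4 CPM. Course 1 was above the parental library (log2 0.30, 0.27 to 0.33) and courses 3 and 5 were below it (-0.67, -0.71 to -0.64, and -1.13, -1.18 to -1.09). ADAMTSL5 had 5.27, 4.66 and 3.53 CPM in the DMSO courses and 8.21 CPM in the parental library, with every DMSO library lower and course 5 past 2-fold. ADAMTSL2, mutated in geleophysic dysplasia, had 43, 76 and 39 counts in the DMSO courses and 20 in the parental library, with log2 ratios of 1.56 (0.77 to 2.41), 2.16 (1.44 to 2.95) and 1.34 (0.53 to 2.20). It lies 72.8 kb from ADAMTS13 on the same strand.

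**Figure D3:**
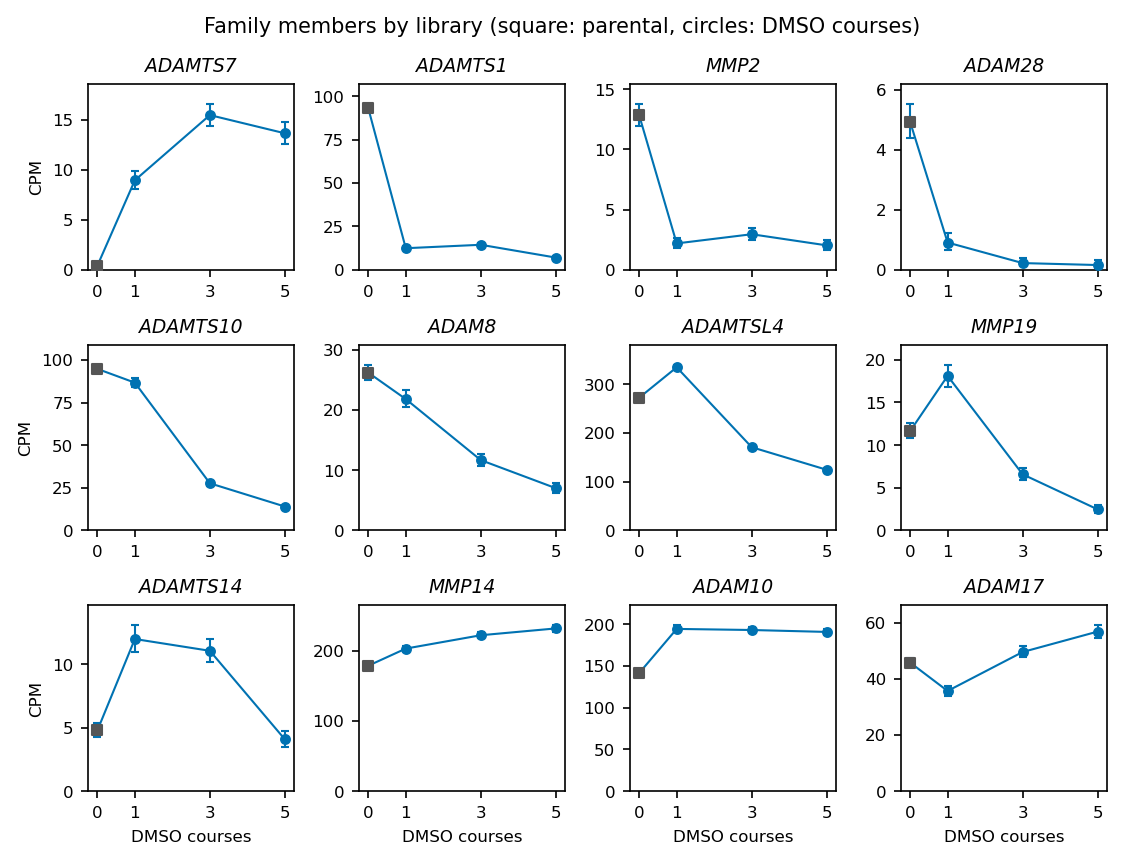
CPM of 12 members by number of DMSO courses, with the parental library as a square at 0 courses, circles for DMSO courses 1, 3 and 5, and bars for the 95% counting interval. Each axis starts at 0. ADAMTS7 is near 0 only in the parental library, ADAMTS1, MMP2 and ADAM28 are high only there, ADAMTS10 and ADAM8 are lower with each course, ADAMTSL4 and MMP19 peak at course 1, and MMP14, ADAM10 and ADAM17 move within 1.6-fold.

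The sheddases with the widest known range of substrates varied little. ADAM10, which sheds Notch receptors and amyloid precursor protein, had 194.4, 193.1 and 190.8 CPM in DMSO courses 1, 3 and 5 and 141.5 CPM in the parental library. The 3 DMSO libraries thus lay within their counting intervals of each other, at log2 ratios to the parental library of 0.46 (0.42 to 0.50), 0.45 (0.41 to 0.49) and 0.43 (0.39 to 0.48). ADAM17, which sheds tumor necrosis factor and its receptors, had 35.7, 49.6 and 56.9 CPM in the DMSO courses and 45.8 CPM in the parental library. Course 1 was below the parental library and course 5 above it, and the highest library was 1.59-fold above the lowest. ADAM9 showed a like order on a like scale, at 37.7, 62.9 and 63.8 CPM in the DMSO courses and 55.1 CPM in the parental library. ADAM15, which carries an integrin-binding motif, had 58.2, 85.9 and 88.4 CPM in the DMSO courses and 97.2 CPM in the parental library, with course 1 lowest.

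ADAM8, a sheddase of neutrophils and monocytes, had 939, 586 and 319 counts in DMSO courses 1, 3 and 5 and 1549 in the parental library, or 21.8, 11.7 and 7.0 CPM against 26.2 CPM. ADAM28, first known as a lymphocyte metalloprotease, had 39, 11 and 7 counts in the DMSO courses and 292 in the parental library. Its log2 ratios were -2.45 (-2.97 to -1.96), -4.49 (-5.51 to -3.63) and -5.01 (-6.33 to -3.95), the lowest of any tested member in courses 3 and 5, leaving aside the bounds of MMP9 and ADAMTS5 at 0 counts. ADAMDEC1, a secreted relative found in macrophages and dendritic cells, lies 25.3 kb from ADAM28 on the same strand. It had 47, 5 and 4 counts in the DMSO courses and 87 in the parental library, and it is named here after its values were seen. In course 1 ADAM28 was 5.45-fold below the parental library, while the interval of ADAMDEC1 (log2 -0.98 to 0.10) included the parental level. The summed lymphoid markers were also lower in the DMSO libraries: 1 of them, CD3D, had 24, 3 and 4 counts in the DMSO courses and 243 in the parental library, and the 6 markers summed to 3.25, 0.378 and 0.439 CPM in the DMSO courses and 5.93 CPM in the parental library. The part of such markers in the ADAM28 and ADAMDEC1 values was not tested.

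Of the 8 ADAM genes that encode no active protease, 3 were tested, and 0 were past 2-fold in any DMSO library against the parental one. Over all genes tested, 5.73% to 6.85% were higher in a course and 7.93% to 11.6% lower. ADAM11 had 3.37, 3.64 and 3.14 CPM in DMSO courses 1, 3 and 5 and 3.23 CPM in the parental library, with all intervals of its ratios including 1. ADAM22, a neuronal receptor of secreted LGI proteins, had 3.32, 5.14 and 6.71 CPM in the DMSO courses and 4.87 CPM in the parental library, so the parental value lay between courses 1 and 3, with the intervals of courses 1 and 5 clear of it. ADAM32 had 12, 35 and 33 counts in the DMSO courses and 23 in the parental library, with log2 ratios of 0.84 (0.04 to 1.67) and 0.90 (0.09 to 1.73) in courses 3 and 5.

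Both gelatinase genes were lower in the DMSO libraries. MMP2 (chromosome 16) had 94, 148 and 92 counts in DMSO courses 1, 3 and 5 and 760 in the parental library, or 2.18, 2.95 and 2.02 CPM against 12.8 CPM. Its log2 ratios were -2.56 (-2.88 to -2.25), -2.12 (-2.39 to -1.87) and -2.67 (-3.0 to -2.36), and the DMSO libraries lay within 1.46-fold of each other. MMP9 had 5, 5 and 0 counts in the DMSO courses and 45 in the parental library, so it was scarce throughout. With the 0 counts of course 5 set to the floor of 3 counts, MMP9 was 11.6-fold below its parental level there. The upper limit of the counting interval for that log2 ratio was -3.17.

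The 6 membrane-type MMP genes held the largest share of MMP transcripts, with 4 of them tested and 0 past 2-fold in all 3 DMSO libraries. Since 1.55% of all genes tested were higher and 2.81% lower in all 3, 0 of 4 is near the shares. MMP14 had 202.8, 221.8 and 231.5 CPM in DMSO courses 1, 3 and 5 and 178.4 CPM in the parental library, with a log2 ratio of at most 0.38 (0.34 to 0.42), in course 5. MMP17 had 90.3, 59.0 and 45.7 CPM in the DMSO courses and 59.2 CPM in the parental library, so course 1 was high, course 3 level and course 5 low. MMP15 had 80, 213 and 210 counts in the DMSO courses and 119 in the parental library, and only courses 3 and 5 were past 2-fold, at log2 1.08 (0.75 to 1.41) and 1.20 (0.87 to 1.53). MMP25, known from neutrophils, had 5.71, 2.79 and 1.84 CPM in the DMSO courses and 2.65 CPM in the parental library, with only course 1 past 2-fold. It overlaps MMP25-AS1 on the other strand, which had 2819, 2458 and 1621 counts in the DMSO courses and 2482 in the parental library, far more than MMP25 itself, and the same limit on strand holds for this pair and for MMP24OS and MMP24. MMP19, which is made by many tissues, had 780, 330 and 112 counts in the DMSO courses and 688 in the parental library. Its level was thus 1.56-fold higher than parental in course 1 and 4.73-fold lower in course 5. MMP24OS had 52.1, 37.7 and 32.2 CPM in the DMSO courses and 44.4 CPM in the parental library.

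Library by library, 5 members were at least 2-fold higher in course 1 than in parental cells and 8 were lower, as 6.85% and 8.51% of all tested genes were in those directions. ADAMTS7 is 1 of the higher members in each course, and without it 4, 3 and 3 members were higher in courses 1, 3 and 5. In course 3 the members numbered 4 higher and 9 lower, against 5.73% and 7.93% of all genes, and in course 5 they numbered 4 higher and 12 lower, against 6.35% and 11.6%. The lower members of each course include MMP9, ADAMTS4 and ADAMTS5, which were tested only because of their parental counts. The filter thus fixed their direction, in these counts and in the medians below. Comparisons between DMSO courses do not involve the parental library. Course 3 had 4 members higher and 5 lower than course 1 (6.9% and 8.64% of all genes), course 5 had 5 higher and 9 lower than course 1 (9.68% and 13.6%), and course 5 had 0 higher and 3 lower than course 3 (1.8% and 4.21%). The 3 were ADAMTS1, MMP19 and ADAMTS14. The median log2 ratio over the 31 tested members other than ADAMTS7 was -0.27, -0.18 and -0.37 in courses 1, 3 and 5 against the parental library, beside medians of 0.00, 0.00 and -0.02 over all genes tested. With 1 library on each side these counts carry no test.

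The pooled comparison of the 3 DMSO libraries with the parental library called 0 of 18612 genes, and so 0 members, by the quasi-likelihood test of edgeR after Benjamini-Hochberg correction. ADAMTS1 had a pooled log2 fold change of -3.05 ± 0.40 (SE), and its adjusted p in that edgeR test was 0.341. For MMP2 it was -2.43 ± 0.34, with the same adjusted p of 0.341 in edgeR. At an unadjusted p under 0.05 the test held 8 members other than ADAMTS7, against 5.61% of all genes: ADAMTS1, MMP2, ADAM28, MMP9, ADAMTS4 and ADAMTS5 on the lower side, and ADAMTS2 and ADAMTSL2 on the higher side. MMP9, ADAMTS4 and ADAMTS5 were tested only because of their parental counts, so the filter fixed their direction. limma-voom also called 0 genes, and DESeq2 called 209 of the 18612 genes, with ADAMTS1 and MMP2 as the members among them. The call turned on single libraries: without course 1, edgeR called 1578 genes (8.59%) and 8 members (ADAM28, MMP2, MMP9, ADAMDEC1, ADAMTS10, ADAMTSL4, ADAM8 and ADAMTS1, all lower), while without course 3 or without course 5 ADAMTS1 was the 1 member called. The spread in this test came from DMSO libraries of different courses, with the lone parental library assumed to vary like them. Without course 1 the spread came from courses 3 and 5 alone. Over genes averaging at least 5 CPM, the log2 ratios of that pair had an SD of 0.297, against 0.527 to 0.825 for the other pairs.

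The trend test asked which members followed a slope over 0, 1, 3 and 5 courses. It called 0 of 18612 genes after adjustment in edgeR's quasi-likelihood test and 0 in limma-voom, and DESeq2 called 888 genes (4.77%) with 7 members (ADAM28, MMP19, ADAMDEC1, ADAMTS10, ADAMTSL4, ADAM8 and ADAMTS1), all with negative slopes. At an unadjusted p under 0.05 edgeR's slope held 12 members, against 15.8% of all genes, of which 11 had negative slopes and MMP15 a positive one, at 0.29 ± 0.09 log2 per course (SE). MMP9 and ADAMTS5, among these 11, were tested only because of their parental counts, so the filter fixed their direction. ADAMTS10 had a slope of -0.60 ± 0.07 log2 per course, with an adjusted p in edgeR of 0.104, and ADAM8 had -0.39 ± 0.06, with an adjusted p of 0.123. At 0, 1, 3 and 5 courses ADAMTS10 stood at 94.8, 86.7, 27.6 and 14.0 CPM and ADAM8 at 26.2, 21.8, 11.7 and 7.0 CPM. These were the 2 members in falling order with the counting interval of each step clear of 1. How many of all genes tested did the same was not counted, so the 2 cannot be set against a share. By CPM alone 7 members were in falling order, MMP9 and ADAMTS5 again among them, as were 7.12% of all genes tested. MMP14 was the 1 member in rising order, as were 7.91% of all genes. Without course 1 the slope called 11 members, with MMP9 among them, and 15.2% of all genes. A slope over DMSO courses 1, 3 and 5 called 9 members and 23.4% of all genes. Among those 9 were MMP19 (-0.73 ± 0.08 log2 per course) and ADAMTS10 (-0.67 ± 0.06). Of those 9 members, 8 fell with the courses and ADAM17 rose.

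Summed by subfamily, ADAMTS transcripts were lower with each course, at 208.5 CPM in the parental library and 140.0, 88.3 and 58.2 CPM in DMSO courses 1, 3 and 5. In the parental library ADAMTS10 and ADAMTS1 made up most of it, and ADAMTS10 alone held 61.9% of the course 1 sum and 24.0% of the course 5 sum. ADAM transcripts summed to 356.9, 413.2 and 417.9 CPM in the DMSO courses and 381.0 CPM in the parental library, and ADAM10 made up between 37.2% and 54.5% of them. MMP transcripts other than MMP24OS summed to 321.3, 297.8 and 288.4 CPM in the DMSO courses and 267.8 CPM in the parental library. ADAMTSL transcripts, almost all from ADAMTSL4, summed to 341.2, 177.0 and 128.8 CPM in the DMSO courses and 281.0 CPM in the parental library. All 69 genes together gave 1211, 1014 and 925.6 CPM in the DMSO courses and 1183 CPM in the parental library. Scaling to total gene counts turned the course 1 difference round, to 1165 CPM for course 1 against a parental sum of 1231 CPM.

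**Figure D4:**
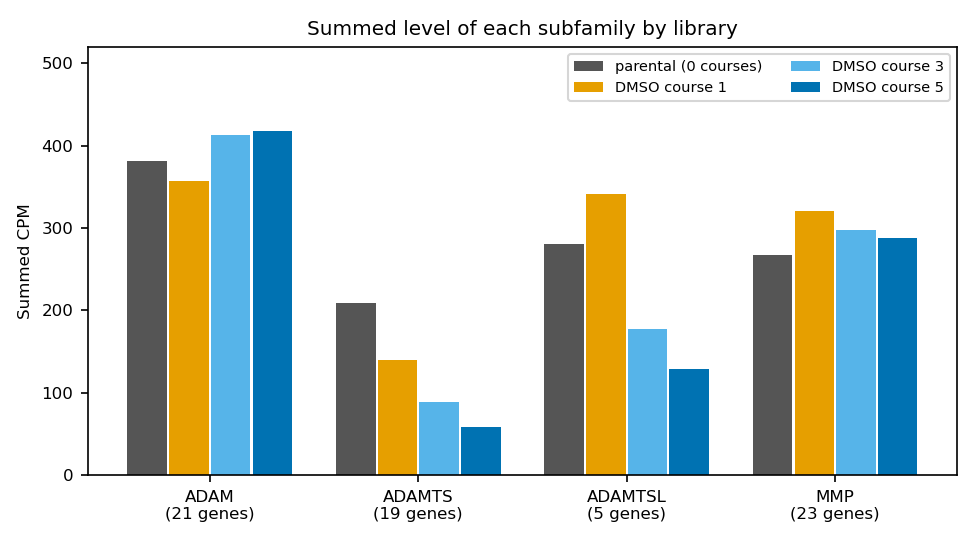
Summed CPM of each subfamily in the 4 libraries, as bars from 0, with MMP24OS left out of the MMP genes. The ADAMTS bars are lower with each course, with 208.5 CPM at 0 courses and 58.2 CPM at course 5, while the ADAM and MMP bars stay within 356.9 to 417.9 CPM and 267.8 to 321.3 CPM.

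Of the genes whose products inhibit these enzymes, TIMP1 had 2143, 1381 and 1222 counts in DMSO courses 1, 3 and 5 and 4595 in the parental library, or 49.7, 27.5 and 26.8 CPM against 77.7 CPM. TIMP1 was thus lower in every DMSO library and past 2-fold in courses 3 and 5. TIMP2, which also helps MMP14 to activate the MMP2 precursor, was highest in course 1, with 70.4, 35.3 and 24.9 CPM in the DMSO courses and 38.8 CPM in the parental library. TIMP3 had at most 3 counts and TIMP4 at most 4. RECK, a membrane-anchored inhibitor, had 17.7, 19.3 and 20.0 CPM in the DMSO courses and 13.5 CPM in the parental library. The broad inhibitor A2M, named after its values were seen, had 12, 15 and 6 counts in the DMSO courses and 103 in the parental library. Of the 7 inhibitor genes, 5 were tested, 0 were 2-fold higher in all 3 DMSO libraries and 2 were 2-fold lower in all 3 (A2M and SPOCK2), beside 1.55% and 2.81% of all genes.

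Of the 4 convertase genes whose products remove the inhibitory prodomain, 3 were tested. Of these, 0 were 2-fold higher or lower in all 3 DMSO libraries, beside 1.55% and 2.81% of all genes. FURIN had 105.1, 114.4 and 129.1 CPM in DMSO courses 1, 3 and 5 and 105.3 CPM in the parental library, and PCSK7 had 28.6, 39.3 and 36.6 CPM against 35.8 CPM. The scarcer PCSK6, named after its values were seen, had 0.952, 1.10 and 2.52 CPM in the DMSO courses and 1.05 CPM in the parental library, with course 5 alone past 2-fold (log2 1.27, 0.81 to 1.74). RHBDF1, which encodes an iRhom that escorts ADAM17 to the cell surface, had 2040, 456 and 147 counts in the DMSO courses and 1456 in the parental library, or 47.3, 9.08 and 3.23 CPM against 24.6 CPM. RHBDF2, the iRhom known from immune cells, had 45.4, 21.8 and 18.3 CPM in the DMSO courses and 31.8 CPM in the parental library, with the same course 1 maximum. FRMD8, which stabilises the iRhom complex, had 25.0, 32.7 and 30.8 CPM in the DMSO courses and 31.96 CPM in the parental library. TSPAN14, a tetraspanin that partners ADAM10, had 28.1, 28.6 and 28.3 CPM in the DMSO courses and 26.6 CPM in the parental library.

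Among 19 genes for substrates that ADAM10 or ADAM17 shed, 13 were tested. FCER2, the low-affinity IgE receptor, was the 1 at least 2-fold higher in all 3 DMSO libraries, with 47.4, 61.1 and 50.4 CPM in the DMSO courses and 20.3 CPM in the parental library. APP, the amyloid precursor, had 116.5, 232.5 and 303.1 CPM in the DMSO courses and 103.0 CPM in the parental library, so only courses 3 and 5 were past 2-fold. CD44, a hyaluronan receptor, had 163.6, 133.9 and 168.0 CPM in the DMSO courses and 226.5 CPM in the parental library. CSF1R, the macrophage growth factor receptor, had 61.5, 27.5 and 21.7 CPM in the DMSO courses and 49.0 CPM in the parental library. The scarce growth factor genes EREG and TGFA, named because they make up the count, were the 2 at least 2-fold lower in all 3 DMSO libraries, again beside 1.55% of all genes higher and 2.81% lower. EREG had 9, 1 and 0 counts in the DMSO courses and 78 in the parental library, and TGFA had 8, 5 and 10 against 133. EREG was tested only because of its parental counts, so the filter fixed its direction.

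Genes for ADAMTS substrates were mostly scarce. VCAN, the proteoglycan versican that ADAMTS1 cuts, had 199, 2172 and 2381 counts in DMSO courses 1, 3 and 5 and 235 in the parental library, or 4.62, 43.2 and 52.2 CPM against 3.97 CPM. Course 1 thus stood at the parental level, and courses 3 and 5 were above it by a log2 ratio of 3.45 and 3.72. THBS1, a thrombospondin that ADAMTS7 cuts, was named after its values were seen and had 3, 18 and 29 counts in the DMSO courses and 262 in the parental library. COMP and ACAN, further substrates of ADAMTS enzymes, had 0 counts in every library. In edgeR's pooled quasi-likelihood test 0 genes of these companion lists passed the adjusted threshold of 0.05, as 0 of all genes did.

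**Figure D5:**
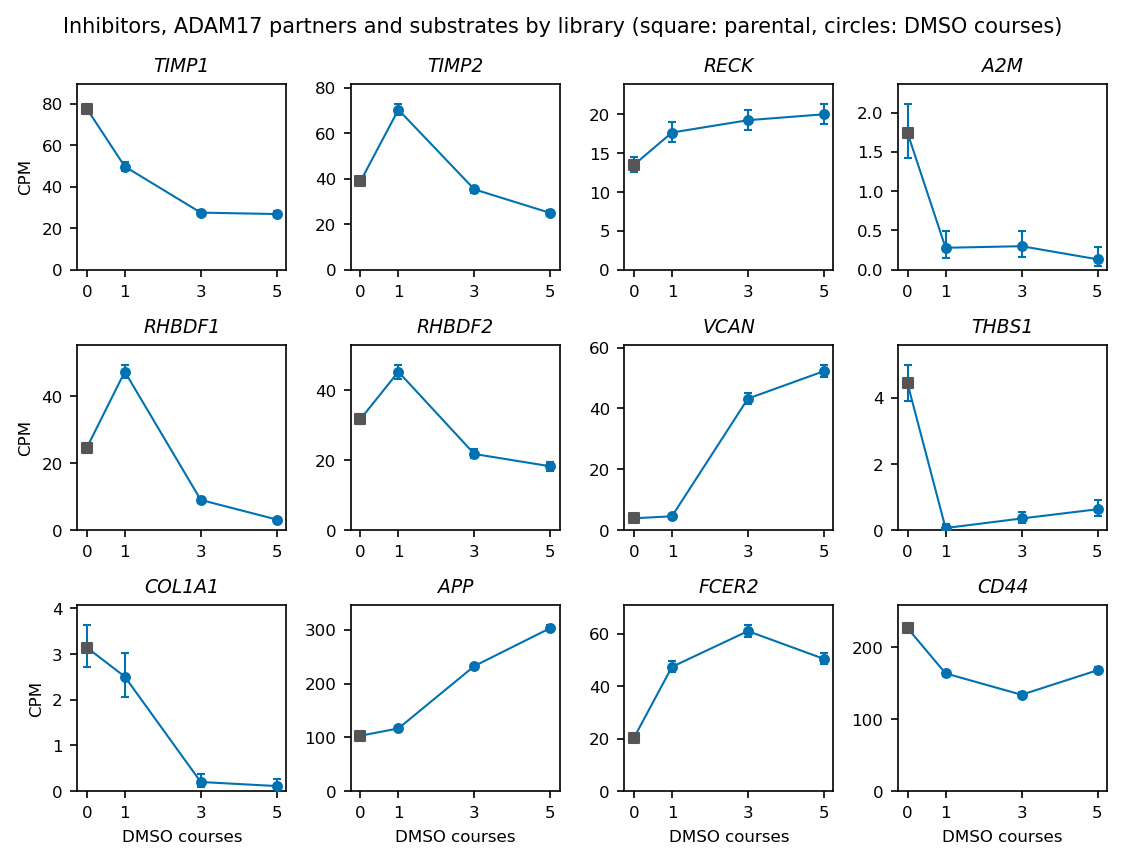
CPM of inhibitors (TIMP1, TIMP2, RECK, A2M), iRhom genes (RHBDF1, RHBDF2) and substrate genes by number of DMSO courses, with the parental library as a square at 0 courses, circles for DMSO courses 1, 3 and 5, and bars for the 95% counting interval. TIMP1 and THBS1 are highest in the parental library, TIMP2, RHBDF1 and RHBDF2 at course 1, and VCAN and APP at course 5.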

How the data were processed

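The authors deposited raw counts for each Ensembl gene, and the 5 summary rows that HTSeq adds to a file were left out here. Libraries were made with a TruSeq RNA kit, per the labels' protocols, and the submitters' processing notes name FastQC 0.11.5, TopHat2 2.0.11, HTSeq 0.6p1 and hg19. GENCODE 29, an annotation of GRCh38, held all 58735 gene IDs, so it is unclear which build was counted, and gene coordinates are given only for RefSeq promoter windows. Per the file names, counting was reverse-stranded, and whether the kit keeps strand is not given in the sources used here.

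The analysis used R 4.3.3 and edgeR 4.0.16 (TMM, filterByExpr with minimum count 10 and minimum total 15, quasi-likelihood test, 2 residual degrees of freedom, Benjamini-Hochberg adjustment over 18612 genes, threshold 0.05), limma 3.58.1 and DESeq2 1.42.0. Fits with 1 library left out, the slope over the DMSO courses alone among them, had 1 residual degree of freedom. The functions were tested on simulated data. CPM was computed from the deposited counts. Single libraries were compared as log2 ratios, with 95% intervals from the exact binomial distribution for counting error alone, and 0 counts were set to a floor of 3. Each group had 1 library analysed here, so p-values reflect the spread among these libraries, which may be technical. Every pair of libraries differed beyond counting noise. Exon lengths and 50-base stretches came from GENCODE 29.

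The members, the gene lists and the tests were chosen with earlier results of these data known. Members averaging 1 CPM or more were named, and scarcer ones where they had at least 10 counts in 1 library and 0 in another. Of each companion list, up to 4 genes averaging 5 CPM or more with the largest pooled change were named, and all TIMP genes and ADAMTS7 neighbours and copies. Genes named outside this rule were chosen after their values were seen.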

Additional observations from a re-analysis of the deposited data

Results flagged for a closer look

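For 8 members, courses 1 and 5 stood on opposite sides of the parental library, with both counting intervals clear of its level. No fold threshold was asked for. How many of all genes tested did the same was not counted, so the 8 cannot be set against a share. The difference between the courses was not tested, since each is 1 library. The log2 ratio of course 5 to course 1 was -1.43 for ADAMTSL4, -0.98 for MMP17, -0.69 for MMP24OS, -2.88 for MMP19 and -1.63 for MMP25, each above the parental library in course 1 and below it in course 5. It was 0.76 for ADAM9, 0.67 for ADAM17 and 1.02 for ADAM22, each below the parental library in course 1 and above it in course 5. The largest of these was MMP19, with 18.1 CPM in course 1, 2.46 CPM in course 5 and a parental level of 11.6 CPM.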

How the results depend on the processing

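No paired analysis was possible because each course and the parental state had 1 library analysed here. The pooled comparison called 0 genes in edgeR and 13 with no filter, 209 in DESeq2 and 25 to 1578 with 1 DMSO library left out, and its members other than ADAMTS7 numbered 2 in DESeq2 and 1 to 8 with 1 library left out. The slope called 132 genes and 1 member (ADAMTS10) with no filter, 888 and 7 in DESeq2, 5 to 2795 and 0 to 11 with 1 DMSO library left out, and 3642 and 9 over the DMSO courses alone. The cause was not tested. DESeq2 size factors, total gene counts, a mean of at least 5 CPM and limma-voom gave 0 calls in both.

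Counts of members higher than parental include ADAMTS7. Except with a mean of at least 5 CPM, counts of members lower than parental can include MMP9, ADAMTS4 and ADAMTS5. These were tested only because of their parental counts. With a mean of at least 5 CPM, members higher and lower than parental numbered 3 and 1 in course 1, 2 and 3 in course 3, and 2 and 6 in course 5, beside shares of 2.23% to 3.7% higher and 2.34% to 4.92% lower over all genes at this setting. Course 3 then had 0 higher and 2 lower than course 1 (3.9% and 4.82% of all genes) and course 5 had 1 and 5 (7.14% and 9.08%), while 1 member was higher and 1 lower in all 3 DMSO libraries (0.868% and 0.607%), since fewer members were left. At 1.5-fold, members higher than parental numbered 8 in course 1 and 7 in course 3 (14.5% and 10.3% of all genes), course 3 had 9 higher and 8 lower than course 1 (14.6% and 15.4%), and course 5 had 9 higher than course 1 (18.6%) and 7 lower than course 3 (8.19%). At 4-fold, members higher than parental numbered 1, 2 and 1 in courses 1, 3 and 5 (1.58%, 1.89% and 2.07% of all genes), and 7 were lower in course 5 (5.2%). Course 3 then had 1 higher and 2 lower than course 1 (1.79% and 2.57%), course 5 had 1 and 4 against course 1 (2.29% and 5.01%), and 0 were lower in course 5 than in course 3, beside 208 of all 18612 genes.

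Leaving out 1 DMSO library gave 3 members higher and 6 to 9 lower in the remaining ones (1.84% to 3.67% and 3.29% to 6.35% of all genes), a setting added after the data were seen, as was every other setting of that count. Scaling to total gene counts shifted all log2 ratios to the parental library by -0.11, -0.08 and -0.04 in courses 1, 3 and 5. The summed CPM of all members was then 1165, 1002 and 935.4 in the DMSO courses and 1231 in the parental library, and the pooled log2 fold changes of ADAM17, ADAM22 and ADAM11, all near 0, changed sign. Depth limits the scarce members: below 10 counts an interval spans more than a 2-fold range.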

Other observations

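Of 21 genes with such a name that are pseudogenes, antisense or other non-coding genes, MMP25-AS1 was by far the most abundant. ADAM20P1 had 34, 33 and 16 counts in DMSO courses 1, 3 and 5 and 29 in the parental library, and ADAMTSL4-AS1 had 16, 11 and 2 counts in the DMSO courses and 20 in the parental library. MMP2-AS1 had at most 3 counts. None of the 21 was above the parental library in all 3 DMSO libraries with its counting intervals clear of the parental level. ADAM21P1 had 1 count in each DMSO library and 0 in the parental library.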
